A study of Malus domestica with 34 samples.

Results

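In apple, a small group of genes gave many counts in every root library and almost none in any leaf library. The present account concerns 22 such genes among the 52311 gene identifiers of the deposited table. They were chosen on CPM (a gene's count divided by the library's total count and multiplied by 1000000). A gene was taken when its lowest CPM over all 16 root libraries was at least 30, its highest CPM over all 18 leaf libraries was at most 1, and its highest root CPM was at most 4 times its lowest. Abundance in root, near absence from leaf and limited variation among roots are therefore the terms of the choice and not results, and no test of root against leaf is given. Because the last limit also bounds how far a gene could move with watering, sampling or winter, the changes described here are those left to genes that were already steady.

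The plants were apple seedlings (Malus domestica) grown from seed of 'Golden Delicious' double haploid 18 (GDDH18), a line made homozygous by doubling a haploid genome. All groups shared this seed source, and the seedlings were 12 weeks old when the watering regimes began. Control plants were kept well-watered near 80% soil water content throughout. Drought plants went through cycles of 3 weeks at 45% followed by 3 weeks of rewatering. Root and leaf were sampled in both regimes at the end of the first and of the third drought, and again once winter had passed, when no further drought had been given. The 6 root groups were well-watered and drought at the first sampling, well-watered and drought at the third sampling, and well-watered and previously droughted plants in the next year. The first 4 held 3 libraries each, from sowing blocks 1, 2 and 3. The next-year groups held 2 each, from blocks 2 and 3 for well-watered plants and blocks 1 and 3 for previously droughted plants, so they shared block 3. Each block was sown on its own date and counts as a biological replicate, taken here as the replicate number of the sample titles. The number of plants pooled per library is not known here.

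Roots anchor the plant, take up water and mineral ions, and are the first organ to meet drying soil. As background, genes used in root and not in shoot commonly serve ion and water transport, the walls and barriers of the outer and vascular cell layers, and exchange or defence towards soil microbes. Against the RefSeq gene table for apple (assembly GDT2T_hap1), 0 of the 52311 identifiers matched, and no names stand beside them in the count table. The 22 genes are therefore described by identifier, with no function, coordinate or sequence, and the root and leaf labels could not be checked against named marker genes. Each of the 34 libraries was most similar in rank order to another library of its own labelled tissue. Root libraries held between 29963017 and 60194325 counts and leaf libraries between 25974815 and 68239819.

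Abundance and near absence from leaf seldom met in a gene. A lowest root CPM of at least 30 was reached by 4755 genes, of which 4471 also varied at most 4-fold among roots. Of those, 4449 exceeded 1 CPM in some leaf library and 22 did not. A further 11 genes met the root floor and the leaf limit but varied over 4-fold among roots. On the other side of the root floor, 887 genes met the leaf and range limits at lower levels. The limits cut through a continuum. At the root floor MD11G1233600 stood just inside with a lowest root CPM of 30.3, and MD15G1094400 just outside with 29.9. At the leaf limit MD02G1073400 stood inside with a highest leaf CPM of 0.972, and MD11G1062300 outside with 1.001. At the range limit MD08G1222900 stood inside with a ratio of 3.80, and MD08G1009400 outside with 4.07.

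The summed CPM of the 22 genes ran from 1650 to 2263 over the 16 root libraries, with a median of 1887, a 1.37-fold range. That was 0.165% to 0.226% of all root counts. By group the sum was 1878 ± 241 in well-watered and 2000 ± 230 in drought roots at the first sampling (SD, n = 3 each). It was 1920 ± 139 and 1914 ± 81.2 at the third sampling (SD, n = 3 each). Next-year sums were 1966 ± 259 in well-watered and 1869 ± 309 in previously droughted roots (SD, n = 2 each). The groups overlapped at every sampling. In whole roots, fewer cells of a type and less RNA per cell cannot be told apart.

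**Figure D1:**
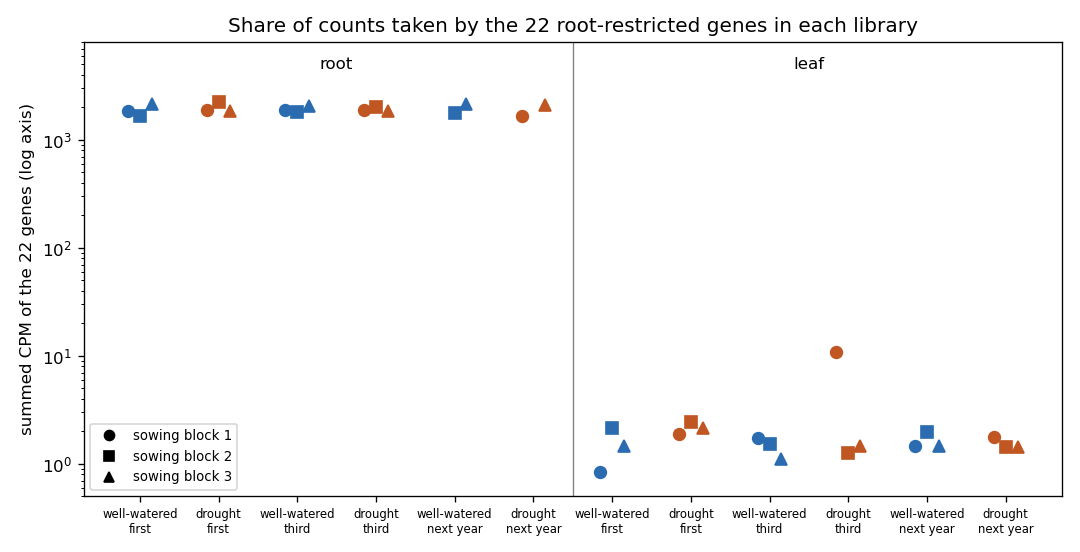
Summed CPM of the 22 genes in each of the 34 libraries on a log axis, by tissue, regime and sampling (blue, well-watered; orange, drought), with marker shapes for the sowing blocks. Root libraries lie between 1650 and 2263; leaf libraries lie between 0.845 and 2.43 apart from the drought library of block 1 at the third sampling, at 10.8.

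In leaf the genes were at the edge of detection, and 1 library stood apart. In 17 of the 18 leaf libraries the summed CPM lay between 0.845 and 2.43, and 6 to 15 of the 22 genes had no count. In the leaf library labelled drought at the third sampling, block 1, the sum was 10.8 CPM from 392 counts (exact Poisson 95% interval 9.76 to 11.9, counting error only), and 0 of the 22 genes lacked a count. This library held the highest leaf value of 17 of the 22 genes. There each gene stood at 0.160% to 1.28% of its mean root level, with a median of 0.571%. The 11 variable root-restricted genes stood at 0.0742% to 1.49% there, with a median of 0.483%. Whether root material was present in this library was not tested.

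The leaf counts of MD07G1083600 and MD12G1245400 came from that library alone. MD07G1083600 had 8 counts there and 0 in the other 17 leaf libraries, while its root CPM had a mean of 75.3. With a floor of 3 counts over those 17 libraries together, its mean root level was at least 18122-fold higher than in them. MD12G1245400 had 14 counts there and 0 in the other 17. The same floor puts its mean root level of 52.0 CPM at least 12509-fold above those 17. By contrast MD02G1073400 and MD02G1083600 had counts in all 18 leaf libraries, 333 and 189 in total, with median leaf values of 0.385 and 0.220 CPM. These folds describe how the genes were chosen.

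The same library also decided which genes met the leaf limit. With the limit taken over the other 17 leaf libraries, an alternative added once the values were known, 28 genes met the rule, including all 22. Of the 6 added, MD13G1023200 had a mean root CPM of 366 and MD13G1029100 of 293, above the mean of every one of the 22. Their highest values in the other 17 leaf libraries were 0.0880 and 0.0486 CPM, against 1.07 and 1.68 in the library that stood apart. None of the 6 was called in any of the 9 root comparisons described here by edgeR's quasi-likelihood test, and 1 of the 28 was called after winter, as among the 22.

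**Figure D2:**
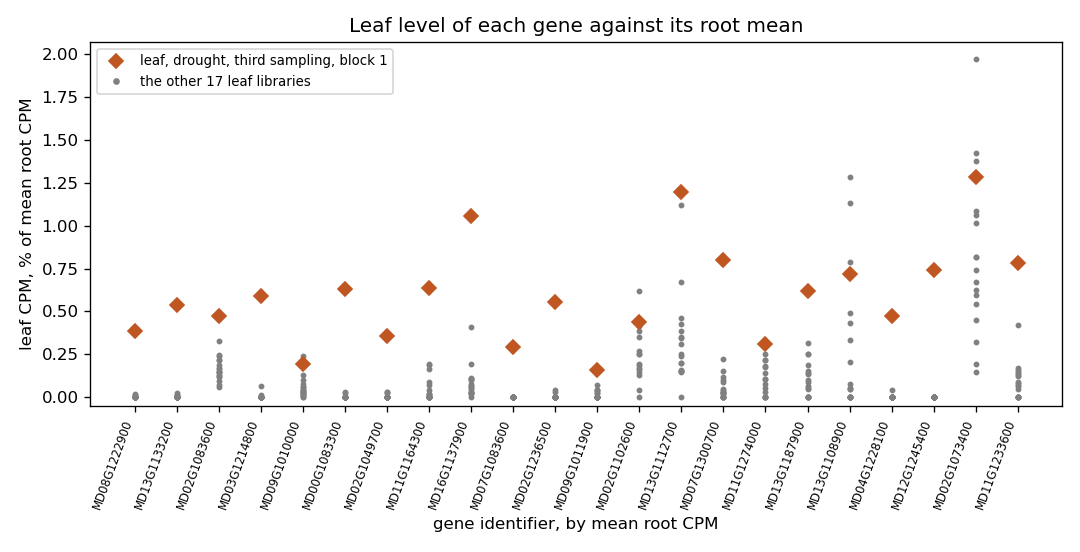
Leaf CPM of each of the 22 genes as a percentage of its mean root CPM, for the drought leaf library of the third sampling, block 1 (orange diamonds) and the other 17 leaf libraries (grey points). The diamonds lie between 0.160% and 1.28%, and they are the highest leaf value for 17 of the 22 genes.

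Among roots the mean CPM of a gene ran from 45.9 to 213, between percentiles 89.1 and 98.7 of all identifiers with any count. CPM is not divided by gene length, so the order of the genes is an order of counts and not of transcript numbers. The 5 with the most counts were MD08G1222900, MD13G1133200, MD02G1083600, MD03G1214800 and MD09G1010000, with mean root CPM of 213, 180, 140, 136 and 101. Together with the steadiest gene they show how differently the genes behaved within the 4-fold limit.

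MD08G1222900 had the widest range of the 22. At the first sampling its CPM in blocks 1, 2 and 3 was 154, 196 and 322 in well-watered and 193, 302 and 225 in drought roots. At the third sampling it was 126, 221 and 202 in well-watered and 173, 255 and 210 in drought roots. In the next year it was 178 and 188 in well-watered roots of blocks 2 and 3, then 95.1 and 361 in previously droughted roots of blocks 1 and 3. Its lowest and highest values both fell in the previously droughted group, and block 1 was the lowest library of each of the 5 groups that had one. Differences between sowing blocks took 49.8% of its variance in log2 CPM, the highest share among the 22, and differences between the 6 groups took 9.95%.

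MD13G1133200 varied 3.60-fold and in part followed the same libraries. Its CPM in blocks 1, 2 and 3 was 167, 129 and 309 in well-watered and 151, 302 and 151 in drought roots of the first sampling. It was 159, 174 and 259, and 145, 187 and 194, at the third. Its next-year values were 94.95 and 141 in well-watered and 85.9 and 234 in previously droughted roots. The ranges of the regimes overlapped at each sampling.

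MD02G1083600 ranged from 91.4 to 227 CPM, both extremes being next-year libraries, of previously droughted block 1 and well-watered block 3. MD03G1214800 ranged from 104 to 187 CPM. At the first sampling its drought values of 162, 156 and 131 all lay above its well-watered values of 104, 127 and 125. The edgeR test there gave a log2 change of 0.20 (SE 0.20, unadjusted p = 0.356), so MD03G1214800 was not called. It was higher under drought in all 3 blocks, as were 13.1% of all genes tested. The share of all genes whose regimes did not overlap at that sampling was not counted. At the third sampling its drought values of 114, 187 and 116 overlapped the well-watered values of 132, 138 and 107. MD09G1010000 ranged from 69.8 to 167 CPM, and both extremes were well-watered roots of the third sampling, of blocks 2 and 3.

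MD09G1011900 was the steadiest, with a ratio of highest to lowest root CPM of 1.57. Its values were 81.5, 58.6 and 52.8 CPM in well-watered and 52.0, 71.0 and 56.6 in drought roots of the first sampling. In the 10 later libraries it stayed between 65.7 and 78.1 CPM, so the first sampling held its lowest and its highest value. MD07G1083600 followed with a ratio of 1.60, ranging from 54.0 to 86.3 CPM.

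Watering was compared in 3 ways, with all 16 root libraries in a joint fit and 33541 genes past the filter on low counts, 22 of the 22 among them. After the first drought, 0 of the 22 genes reached an adjusted p below 0.05 in the quasi-likelihood test of edgeR, and 0% of all genes tested did. The log2 changes of the 22 ran from -0.55 to 0.25 with a median of -0.09. That median was -0.01 over all genes tested and -0.11 over the root-stable genes also found in leaf. After the third drought, 0 of the 22 passed, as did 0% of all genes, with log2 changes from -0.48 to 0.32 and a median of -0.01. In the next year, 0 of the 22 passed, as did 0% of all genes, with log2 changes from -0.52 to 0.67 and a median of 0.09. Over the root-stable genes also found in leaf the median was -0.00 after the third drought and 0.11 in the next year. The sign of each median of the 22 depended on single libraries. Leaving out 1 library at a time gave -0.28 to 0.03 for the first drought, positive without block 1 of either regime. It gave -0.12 to 0.04 for the third, positive without block 3 of either regime. For the next year it gave -0.05 to 0.17, negative without well-watered block 2 or previously droughted block 3. Before adjustment, 0 of the 22 had a p below 0.05 in any of these comparisons, and DESeq2 also called 0. Over all genes tested, 340, 936 and 739 fell below 0.05 before adjustment, and DESeq2's calls numbered 0, 1 and 2.

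Averaging the first and the third drought gave the tightest estimate of the watering effect. Again 0 of the 22 and 0% of all genes passed the edgeR test, with 0 of the 22 and 939 of all genes below 0.05 before adjustment, and 0 calls in either set by DESeq2. For 0 of the 22 did the 6 drought libraries separate from the 6 well-watered ones on CPM, while 0.0268% of all genes separated upwards and 0.0149% downwards. The log2 changes of the 22 ran from -0.37 to 0.17, with a median of -0.04 (-0.12 to 0.00 on leaving out 1 library, positive when the block 1 well-watered library of the first sampling was left out) and a median standard error of 0.20. The 95% interval of the change lay within a log2 change of 1 in either direction for 22 of the 22 genes, with interval ends between -0.80 and 0.74. The same held for 99.2% of the 4449 root-stable genes also found in leaf and 73.6% of all genes tested. The 4-fold limit itself bounds how wide these intervals could be. Of the 22 genes, 14 had a negative and 8 a positive estimate, and the root-stable genes also found in leaf had a median of -0.06.

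MD13G1187900 had the most negative estimate and was named after its values were seen. Its CPM in blocks 1, 2 and 3 was 68.8, 42.4 and 47.6 in well-watered and 58.2, 40.7 and 50.5 in drought roots after the first drought. After the third it was 87.6, 62.0 and 59.4 in well-watered and 48.1, 56.0 and 46.3 in drought roots. The 2 regimes did not overlap at that sampling (edgeR log2 change -0.48, SE 0.26, 95% interval -1.04 to 0.07). Over all genes tested, 13.9% were lower under drought in all 3 blocks there, as this gene was. The share whose regimes did not overlap was not counted. The averaged log2 change of MD13G1187900 was -0.37 (SE 0.18, 95% interval -0.76 to 0.02, edgeR adjusted p = 0.986). Next-year roots did not keep this order, with 71.2 and 46.9 CPM in well-watered and 84.9 and 51.6 in previously droughted roots.

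Within the sowing blocks the direction of the drought difference was mixed. After the first drought, 2 of the 22 genes were higher in drought in all 3 blocks and 0 were lower in all 3, against 13.1% and 2.58% of all genes tested. After the third drought, 2 were higher and 4 lower in all 3 blocks, against 16.5% and 13.9%. For 0 of the 22 genes did all 6 block pairs point the same way, as they did for 2.97% of all genes tested. The change of the drought effect from the first to the third sampling passed the edgeR test for 0 of the 22 and 0% of all genes, with 0 and 408 at an unadjusted p under 0.05 and 0 and 0 by DESeq2. The change of the regime effect between the third sampling and the year after did so for 0 of the 22 and 0% of all genes, with 0 and 877 at an unadjusted p under 0.05 and 0 and 1 by DESeq2.

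**Figure D3:**
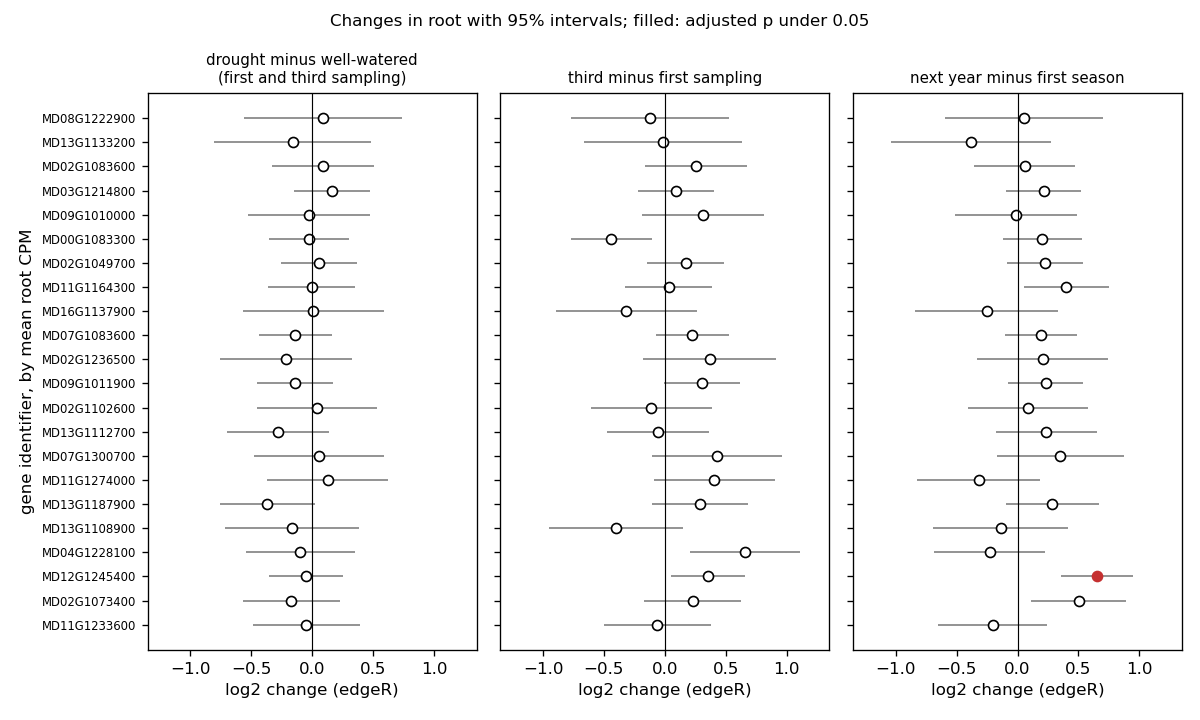
Log2 change of each of the 22 genes in root for drought minus well-watered (mean of the first and the third sampling), the third minus the first sampling and next year minus first season, with 95% intervals from edgeR. MD12G1245400 in the last panel is the filled point past an adjusted p of 0.05; all other points are open.

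Sampling time gave no call either. From the first to the third sampling, averaged over the regimes, 0 of the 22 genes passed the edgeR test, against 0.00894% of all genes tested, or 3 genes (0.00596% higher and 0.00298% lower). The median log2 change was 0.20, against -0.00 over all genes tested and 0.06 over the root-stable genes also found in leaf. It was 0.13 when the block 2 well-watered library of the first sampling was dropped, and 0.12 when the block 2 drought library of the third was. At an unadjusted p under 0.05 there were 3 of the 22 and 4547 of all genes, which is 13.6% of each, and DESeq2 called 0 of the 22 and 640 of all genes. For 0 of the 22 did the 6 libraries of the third sampling separate from the 6 of the first, while 0.414% of all genes tested separated upwards and 0.51% downwards.

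The 3 genes at an unadjusted p under 0.05 were MD04G1228100, MD00G1083300 and MD12G1245400, named after their values were seen. MD04G1228100 stood at 57.5, 39.2 and 39.6 CPM in well-watered and 42.8, 45.6 and 43.8 CPM in drought roots of the first sampling. At the third it stood at 52.2, 53.7 and 91.4, and at 72.5, 56.0 and 73.8. The samplings overlapped through well-watered block 1 of the first (log2 change 0.66, SE 0.21, edgeR adjusted p = 0.244). In the next year it stood at 32.5 and 57.6 CPM in well-watered and 32.7 and 51.5 CPM in previously droughted roots.

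MD00G1083300 went the other way. It stood at 115, 120 and 91.4 CPM in well-watered and 130, 98.9 and 114 CPM in drought roots of the first sampling. At the third it stood at 77.5, 81.5 and 68.5 in well-watered and 67.3, 98.5 and 68.3 in drought roots (log2 change -0.44, SE 0.15, edgeR adjusted p = 0.272). Drought block 2 of the third sampling lay among the first-sampling values and the other 5 lay below all of them. Its next-year values were 121 and 80.2 CPM in well-watered and 98.9 and 100.3 CPM in previously droughted roots. Differences among the 3 samplings took 61.3% of its variance in log2 CPM, and 50.2% of that of MD04G1228100.

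After winter 1 of the 22 genes was called, as higher. MD12G1245400 was higher in the next year than in the first season, in both regimes. Its CPM in the first sampling was 46.2, 37.7 and 38.6 in well-watered and 38.7, 51.7 and 41.3 in drought roots. In the third sampling it was 47.8, 54.5 and 51.8 in well-watered and 55.8, 53.7 and 40.5 in drought roots. In the next year it was 65.2 and 78.5 in well-watered and 59.5 and 70.5 in previously droughted roots. All 4 next-year libraries lay above all 12 earlier ones, the nearest being 59.5 and 55.8 CPM.

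The log2 change of MD12G1245400 from the mean of the 4 first-season groups to the mean of both next-year groups was 0.65 (SE 0.14, 95% interval 0.36 to 0.95, edgeR adjusted p = 0.0195). DESeq2 gave an adjusted p of 0.00101, and called 10.5% of all genes tested. By edgeR 4.53% of all genes passed this comparison, 3.06% higher and 1.47% lower, so 1 of 22, or 4.55%, is near the background. Among the 4449 root-stable genes also found in leaf 4.72% passed, 156 higher and 54 lower. Of all genes tested, 1.14% lay above their earlier range in every next-year library, as 1 of the 22 did, and 1.64% lay below it, as 0 of the 22 did. Against the third sampling alone the shares were 2.36% above and 3.99% below, with 1 and 0 of the 22. The call was lost without the block 3 library of well-watered or of previously droughted next-year roots, each of which leaves that group 1 library, assumed to vary like the others (edgeR adjusted p = 0.0868 and 0.0930). Against the third sampling alone 0 of the 22 passed, where 2.4% of all genes did (1.3% higher and 1.1% lower), with 3 of the 22 and 6470 of all genes below 0.05 before adjustment and 0 and 2549 calls by DESeq2. There the log2 change of MD12G1245400 was 0.48 (SE 0.16, edgeR adjusted p = 0.125). Its watering effect in the next year was 0.05 (SE 0.25, edgeR adjusted p = 1), with an interval from -0.47 to 0.58. Next-year roots came from 4 libraries and differ from the others in plant age, season and year, which cannot be told apart.

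The other genes showed smaller or noisier next-year differences. The log2 changes of the 22 ran from -0.38 to 0.65, 15 positive and 7 negative, with a median of 0.20. Without the block 3 library of well-watered next-year roots this median was 0.09. It was -0.03 over all genes tested and 0.04 over the root-stable genes also found in leaf. At an unadjusted p under 0.05 there were 3 of the 22, or 13.6%, against 22.7% of all genes tested. MD02G1073400, named after its values were seen, stood at 61.7 and 58.4 CPM in well-watered and 59.4 and 62.5 CPM in previously droughted next-year roots. In the first season it ranged from 31.3 to 61.1 CPM, so the samplings overlapped (log2 change 0.50, SE 0.18, edgeR adjusted p = 0.124). MD13G1133200 had the most negative estimate, -0.38, with next-year values of 94.95 and 85.9 CPM below its 12 earlier values and 141 and 234 CPM among them.

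**Figure D4:**
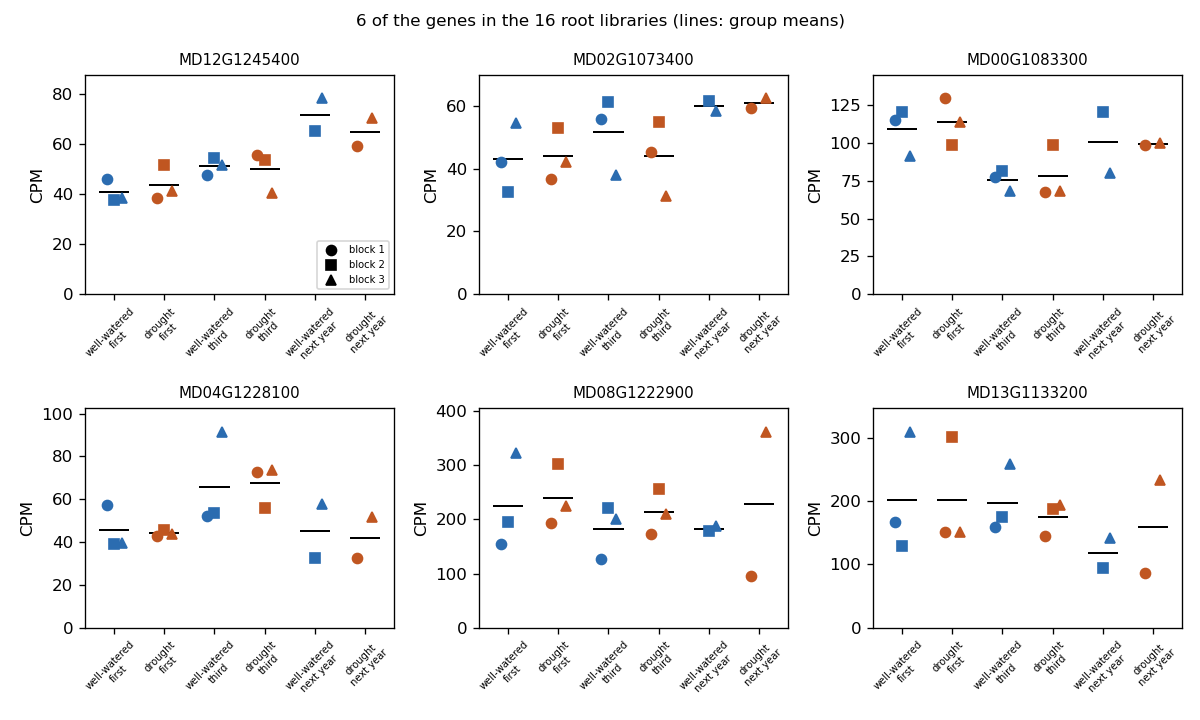
CPM of 6 of the genes in each of the 16 root libraries, by regime and sampling (blue, well-watered; orange, drought; lines, group means; marker shapes, sowing blocks; axes start at 0). The 4 next-year values of MD12G1245400, from 59.5 to 78.5, lie above its 12 earlier values, while MD08G1222900 in the next year runs from 95.1 to 361.

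The 22 genes did not move as a block. Over the 231 pairs of genes, the Spearman correlation of CPM across the 16 root libraries had a median of 0.03 and ran from -0.86 to 0.87, and 6 pairs exceeded 0.7. The libraries share sampling, block and depth differences, so these are descriptions. The most alike were MD07G1083600 and MD02G1236500 at 0.87, MD07G1083600 and MD07G1300700 at 0.80, and MD12G1245400 and MD02G1073400 at 0.77. The most opposed were MD13G1112700 and MD11G1274000 at -0.86. After removal of the group means, 17 pairs exceeded 0.7 and 6 lay below -0.7, against 6 and 2 before it. Removing the means makes the 2 libraries of each next-year group exact opposites and leaves fewer free values. That alone can raise both counts, so no conclusion is drawn from the rise.

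At the first sampling 3 genes, named after their values were seen, differed among libraries of the same group. MD13G1112700 stood at 82.1, 48.6 and 85.1 CPM in well-watered and 50.1, 78.3 and 65.9 CPM in drought roots of blocks 1, 2 and 3. MD02G1236500 stood at 77.9, 40.2 and 71.8, and at 39.9, 84.1 and 54.3. MD11G1274000 showed the reverse order, at 41.4, 81.8 and 32.0, and at 76.3, 53.3 and 70.0. In these 3 genes well-watered blocks 1 and 3 and drought block 2 lay on one side and the other 3 libraries on the other, across the watering regimes.

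Library by library on CPM, well-watered block 2 and drought block 2 of the first sampling lay furthest apart. In the former 19 of the 22 genes were below their own mean over roots, with a median deviation of -0.35 on the log2 scale. In the latter 17 were above it, with a median deviation of 0.20. Scaling by TMM, a method that sets library sizes by the bulk of genes, left 19 below in the former, with a median deviation of -0.40, and 13 above in the latter, with 0.09. On that scale the highest library was previously droughted block 3 of the next year, with 19 above and a median deviation of 0.28, against 12 and 0.04 on CPM. With both of these libraries left out, likewise added once the values were known, the first watering comparison still called 0 of the 22 by edgeR. Its median log2 change was then -0.35 in place of -0.09.

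**Figure D5:**
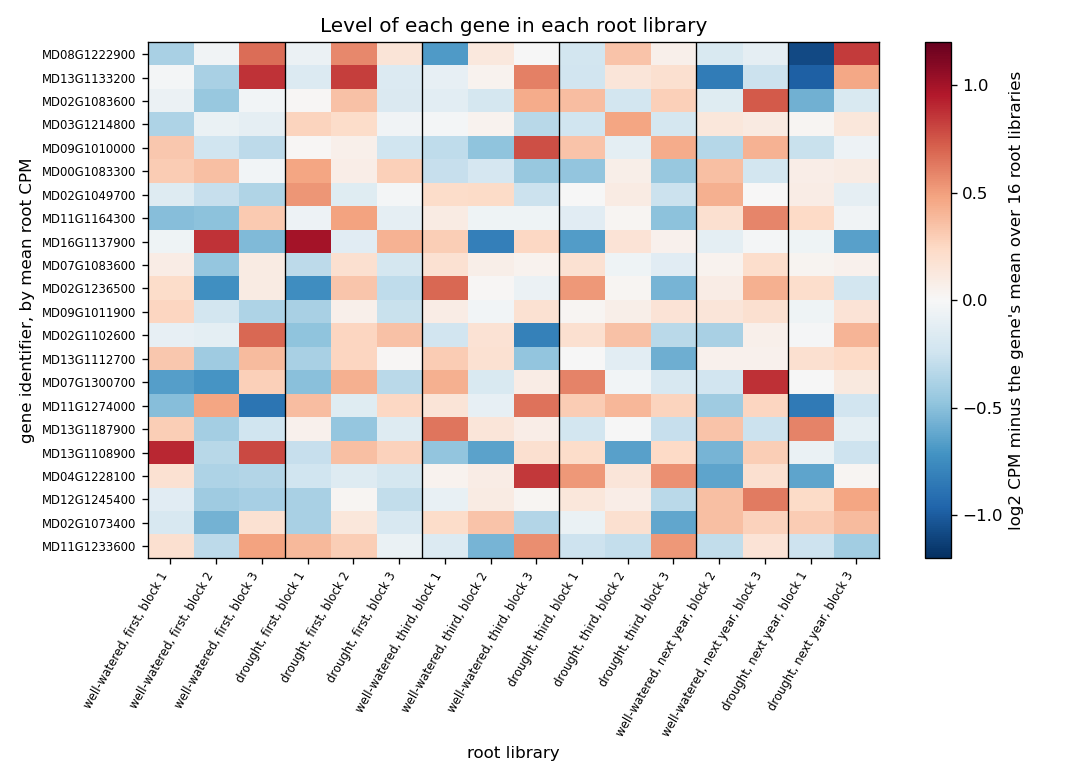
Log2 CPM of each of the 22 genes in each root library minus the gene's mean over the 16 root libraries (red, above; blue, below), with genes ordered by mean root CPM and lines between the 6 groups. Well-watered block 2 of the first sampling is below the mean for 19 of the 22 genes, and MD12G1245400 is above its mean in all 4 next-year libraries.

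In the median gene the 6 groups took no more of the variance in log2 CPM than their share of the degrees of freedom. The 6 groups took a median of 30.8%, where they hold 33.3% of the degrees of freedom, and the share ran from 9.95% to 76.9%, the highest being MD12G1245400. The 3 samplings took a median of 18.1%, above their 13.3% of the degrees of freedom. The 3 sowing blocks took 11.03%, with 13.3%, and the 2 regimes 0.580%, with 6.67%. A share of the degrees of freedom stands for a mean without any effect, and a median can lie below it. A median under that share is therefore not read as less than no effect would give. Over the 4449 root-stable genes also found in leaf the median shares of groups, samplings, blocks and regimes were 40.3%, 26.1%, 11.4% and 1.37%. With the sowing block as a term, the block itself passed the edgeR test for 0 of the 22 and 0% of all genes tested, with 3 of the 22 and 3033 of all genes at an unadjusted p under 0.05. No other tool was run for the block term.

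The identifiers showed no run of neighbours. Of the 22, 5 began with MD02 and 4 with MD13, prefixes borne by 6.12% and 5.45% of all identifiers. The nearest in the order of the table were MD09G1010000 and MD09G1011900, 18 rows apart, followed by MD13G1108900 and MD13G1112700, 38 rows apart. Of the last pair, MD13G1108900 had its highest value in well-watered block 1 of the first sampling at 95.05 CPM and MD13G1112700 in well-watered block 3 at 85.1 CPM.

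The 11 genes left out for varying over 4-fold show what the range limit removed. Their mean root CPM ran from 62.9 to 159 and their ratio of highest to lowest from 4.07 to 7.998. By edgeR's quasi-likelihood test 2 of the 11 were called as higher after winter, where 3.06% of all genes were higher. The log2 change was 1.74 for MD06G1148200 (SE 0.20, adjusted p = 0.000813 by edgeR) and 0.95 for MD17G1199600 (SE 0.22, adjusted p = 0.0274 by edgeR). A limit on range removes such genes by its construction, so the count of winter calls among the 22 does not extend to root-restricted genes that vary more.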

How the data were processed

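The deposited table holds expected counts per gene from Salmon, whole numbers as deposited and so used without rounding, for 16 root and 18 leaf libraries of Malus domestica. Per the submitters' processing notes, FastQC, Salmon, DESeq and DESeq2 were used, and the sources used here give no version, genome build or annotation. Root libraries held 29963017 to 60194325 counts. No pair of root libraries was a duplicate.

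CPM used column sums. Tests were run in R 4.3.3 with edgeR 4.0.16 (robust quasi-likelihood, TMM scaling, filterByExpr) on all 16 root libraries in 6 groups, with Benjamini-Hochberg adjustment over the 33541 genes tested and a threshold of 0.05. DESeq2 1.42.0 was an alternative. Intervals for log2 changes are 95% intervals from the edgeR fit. Poisson intervals and floors cover counting error only.

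The sample titles number the replicates, and these numbers were taken as the sowing blocks. The libraries of the 2 regimes could then be paired by them. Deviations of the 2 regimes from their group means correlated at -0.311, -0.813 and -0.389 in blocks 1, 2 and 3 of the first sampling, and at 0.292, 0.483 and 0.767 at the third. The fit without the block is reported, so its tests are not paired, with the blocked fit as an alternative.

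The members and lists were chosen with earlier results of these data known. Named genes were the 5 with the highest mean root CPM, those with the lowest and highest range, the nearest to each limit, and up to 2 called per direction and comparison, with others named as chosen after their values were seen.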

Additional observations from a re-analysis of the deposited data

Results flagged for a closer look

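The drought leaf library of the third sampling, block 1, stood at 10.8 summed CPM of the 22 root-restricted genes, outside the root comparisons and above the highest well-watered leaf library at 2.15. No cause was tested.

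MD02G1049700 had a higher CPM under drought in all 3 blocks at the first sampling and a lower one in all 3 at the third. Of all genes tested, 13.1% were higher in all 3 blocks at the first sampling and 13.9% were lower in all 3 at the third. The share doing both was not counted, so whether 1 such gene exceeds the background is not known. For MD02G1049700 the pairs of drought and well-watered CPM were 132 and 81.8, 82.7 and 75.6, and 89.7 and 71.1 at the first sampling. They were 90.8 and 106, 98.0 and 107, and 76.3 and 76.6 at the third, the last pair differing by little. The difference between the regimes, drought minus well-watered, changed by -33.6 CPM from the first to the third sampling. The test of this change gave a log2 value of -0.40 (SE 0.29, edgeR adjusted p = 1), so it did not pass.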

How the results depend on the processing

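The number of genes chosen depended on the leaf limit, with 11 genes at a limit of 0.5 CPM and 41 at 2 CPM in place of 22. On TMM-scaled library sizes 17 genes met the rule, 15 of them among the 22, and range limits of 3 and 6 gave 19 and 29. Over 9 comparisons the count of the 22 called was the same in 135 of 137 other settings. In every comparison but next year against first season the main count was 0. In most of those no gene at all was called by the main edgeR fit, so sameness there says little. Leaving out 1 library at a time, the winter count ran from 0 to 1, and it was 0 without block 3 of either next-year group. MD12G1245400 kept its direction in all 21 other settings and its call in 19, with log2 changes from 0.54 to 0.75 and adjusted p from 0.00101 to 0.0930. With the replicate block as a term the winter count among the 22 was 1, with a log2 change of 0.67 for MD12G1245400 (edgeR adjusted p = 0.0268), and the block changed no other call among the 22. The 1.37-fold range of summed root CPM was 1.54-fold with TMM scaling. The next-year groups hold 2 libraries each, which limits their precision, and share 1 sowing block, so regime and block are partly confounded there.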
